A study of Mus musculus with 5 samples.

Results

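Amino acid transporter genes were followed across the cells of mouse kidney. The genes were taken by name from the feature list: the families Slc1a, Slc3a, Slc6a, Slc7a, Slc36a, Slc38a and Slc43a, with Tmem27, gave 67 of 27998 genes. The name rule also takes in the creatine and serotonin carriers Slc6a8 and Slc6a4, the taurine carrier Slc6a6, and 4 transcripts that are no transporters (Slc7a6os, Slc36a3os, Slc36a1os and Slc6a19os). Of the 67 genes, 42 had at least 100 UMIs (unique molecular identifiers, each standing for 1 captured RNA molecule) in all, 19 had fewer, and 6 had none. All 5 mice were C57BL/6j with lupus induced by pristane, a hydrocarbon oil. Kidneys came from 2 mice given saline and 3 mice given a fecal microbiota transplant (FMT) from MRL/MpJ donors. Age and sex were not in the labels. No mouse without pristane was analysed here, and the labels do not say that the saline mice received a transplant of any kind. The libraries held 15333445 to 45309178 UMIs, and 22591 cells were kept of 26237 barcodes.

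Proximal tubule cells recover nearly all filtered amino acids. Carriers of the luminal brush border take them up with sodium or by exchange, and carriers of the basolateral membrane release them to the blood. Several work as pairs: the heavy chain Slc3a1 (rBAT) carries the cystine and dibasic amino acid exchanger Slc7a9, and the heavy chain Slc3a2 (4F2hc, CD98) carries Slc7a5, Slc7a7, Slc7a8 and Slc7a11. The luminal neutral amino acid carrier Slc6a19 needs Tmem27 (collectrin) in kidney. Activated lymphocytes and plasma cells draw on a different set, among them Slc7a5, Slc1a5 and Slc38a2, which feeds growth and protein synthesis.

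Cells were classed by marker genes that are no members, and 15336 cells fell into 11 classes. Another 7118 cells fell into no class, 2748 of them because a second marker panel was too high. The labels name tubular epithelial cells and B cells, whereas the matrices also held T cells, monocytes and macrophages, neutrophils and plasma cells. The S1 gate (glucose and lactate carriers Slc5a2 and Slc5a12) and the S2 gate (organic anion carriers Slc22a6 and Slc22a8) differed in their own genes, with a mean Slc5a2 level of 794 against 24.9 CPM (a gene's share of the UMIs of its class in a mouse, times 1000000). Slc22a6 had 67.1 against 449 CPM, whereas Slc22a8 differed less, at 393 against 828 CPM. The gate meant for S3 rested on Atp11a, since its other gene, Cyp7b1, reached only 1.25 CPM there. It carried 229 CPM of Slc5a2 and nearly the S2-gated level of Slc22a6 (421 CPM) and Slc22a8 (784 CPM), so these cells are called Atp11a-gated proximal tubule cells and not S3. Cells gated as distal convoluted tubule by Slc12a3 also carried 3068 CPM of the thick limb gene Umod. S2-gated cells were deeper than S1-gated cells, with medians of 5678 to 7838.5 against 3692.5 to 5037 UMIs per cell over the mice. Atp11a-gated cells were the deepest of the proximal tubule gates in every mouse, with medians of 6596.5 to 9154.5. The part of depth in the gate differences was not tested.

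Tmem27 (chrX:164088830-164118860, GENCODE M21 on GRCm38) was the member with the most UMIs, 54683 in all. In S1-gated cells it stood at 611 and 849.8 CPM in saline mice 1 and 2 and at 910.1, 697 and 497 CPM in FMT mice 1 to 3. The 5 mice ran from 357 to 855 CPM in the S2-gated cells and from 466 to 854 CPM in the Atp11a-gated cells. No class outside the proximal tubule came near: the next, distal convoluted tubule, had 29.2 ± 17.3 CPM (SD, n = 5), and no mouse overlapped between the S2-gated cells and that class. Below it, neighbouring classes overlapped all the way down to neutrophils at 7.54 CPM. Over the 11 class means, the genes whose log2(CPM + 1) pattern was most like Tmem27 were Slc4a4, Mgat3, Gjb1, Slc17a1 and Dnase1, with r of 0.996 to 0.984. Slc4a4, the basolateral bicarbonate carrier, belongs to the panel that defined proximal tubule cells. Among members the closest were Slc6a20b (0.970), Slc7a9 (0.965), Slc3a1 (0.954), Slc6a19 (0.94) and Slc38a3 (0.897). These correlations describe 11 points that share the same 5 libraries.

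Promoter sequences (RefSeq, build GRCm38.p6) were found for 49 of the 67 members. The 3 shown are examples from proximal tubule, its luminal heavy chain, and myeloid cells. Each is shown with a motif that it holds, so these matches are not a test of the patterns described here. Each is the 250 bases before the start, 5′ to 3′ on the gene's strand, with script-found motif matches in capitals. Both strands were searched for GTTAATNAT (the HNF1 partial site), CAAAGTCCA (the HNF4 site) and TGATGCAA (the ATF4 composite element). HNF1 and HNF4 are transcription factors of proximal tubule cells, and ATF4 is the factor of the amino acid response.
Tmem27 (listed as Cltrn; chrX:164089937-164090186, + strand): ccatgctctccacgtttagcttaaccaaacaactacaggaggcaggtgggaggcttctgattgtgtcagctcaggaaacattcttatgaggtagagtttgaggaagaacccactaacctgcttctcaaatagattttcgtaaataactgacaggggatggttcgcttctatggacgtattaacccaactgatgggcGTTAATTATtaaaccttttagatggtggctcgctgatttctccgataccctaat
Slc3a1 (chr17:85028097-85028346, + strand): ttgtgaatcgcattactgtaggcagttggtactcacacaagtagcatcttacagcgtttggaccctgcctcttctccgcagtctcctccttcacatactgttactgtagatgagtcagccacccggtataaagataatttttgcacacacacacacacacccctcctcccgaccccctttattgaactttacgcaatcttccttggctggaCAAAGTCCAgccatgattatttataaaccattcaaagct
Slc7a11 (chr3:50443614-50443863, - strand): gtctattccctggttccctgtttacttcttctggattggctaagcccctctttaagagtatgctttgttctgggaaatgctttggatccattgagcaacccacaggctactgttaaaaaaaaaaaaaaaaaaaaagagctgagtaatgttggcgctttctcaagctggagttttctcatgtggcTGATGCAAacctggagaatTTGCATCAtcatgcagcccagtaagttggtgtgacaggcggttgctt
The HNF1 partial site begins 54 bases before the RefSeq start of Tmem27, and 0.737% of all 32851 promoter windows of this length hold those letters. For Tmem27 the RefSeq and GENCODE starts differ, and this window lies inside the GENCODE gene span given above, not before it. Slc3a1 has the HNF4 letters 39 bases before its start, which 0.384% of windows hold. Slc7a11 has the ATF4 letters 66 and 47 bases before its start, in opposite orientation, and 0.791% of windows hold them at least once. Slc7a7 is the other member with the ATF4 letters, and no other matched member held any of the 3 motifs. A match describes letters and does not show that a factor binds.

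**Figure D1:**
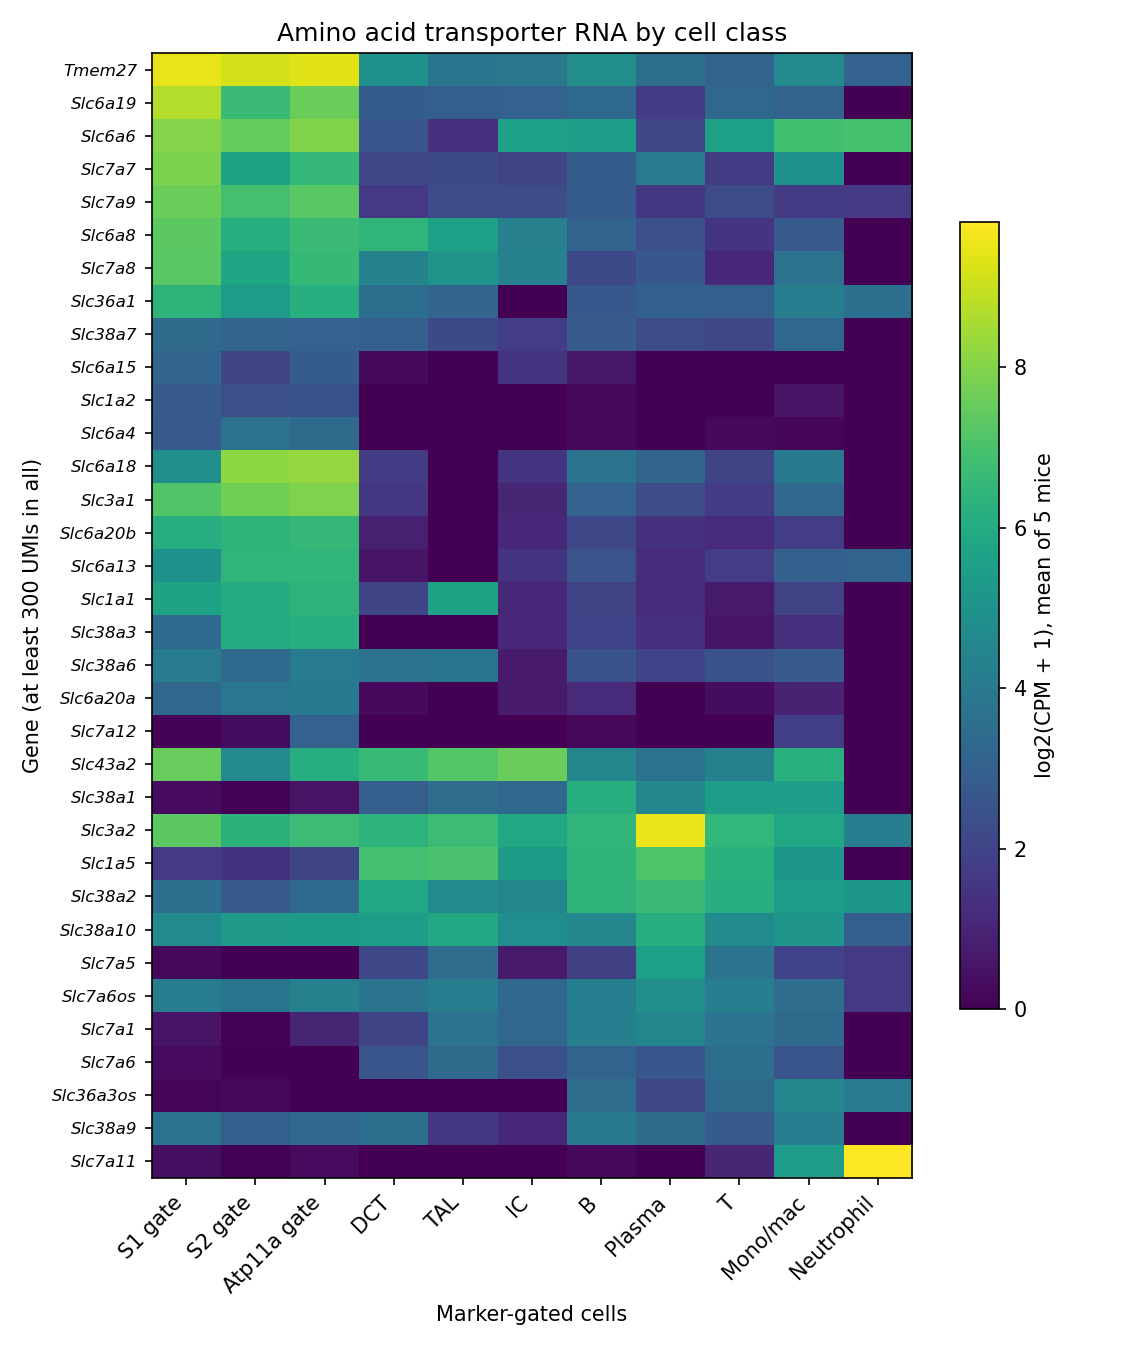
Mean level over 5 mice, as log2(CPM + 1), of the 34 members with at least 300 UMIs in all (rows) in 11 marker-gated cell classes (columns: DCT, distal convoluted tubule; TAL, thick ascending limb; IC, intercalated). The upper rows are bright in the 3 proximal tubule gates, Slc1a5, Slc38a1 and Slc38a2 are darker there than in lymphocytes, Slc3a2 peaks in plasma cells and Slc7a11 in neutrophils.

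Along the proximal tubule the transporters were divided between S1-gated and S2-gated cells of the same mice. Of 27 members that passed the low count filter, 15 were lower and 9 higher in S2-gated cells (edgeR quasi-likelihood test with the mouse as a block, Benjamini-Hochberg adjusted over all genes tested). Over all 10319 genes tested, 50.4% were called, 24.8% lower and 25.6% higher, so calls were common in this comparison. The median log2 difference was -0.36 over the members and -0.03 over all genes. Slc1a2, Slc38a7 and Slc7a6os were tested and not called.

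The luminal neutral carriers Slc6a19 (chr13:73679745-73704865) and Slc6a18 (chr13:73661752-73678023; GENCODE M21, GRCm38), neighbours on the minus strand, went opposite ways. Slc6a19, the main sodium-dependent carrier of neutral amino acids, stood at 370.2, 437, 541, 385 and 347 CPM in S1-gated cells (saline mice 1 and 2, then FMT mice 1 to 3). In S2-gated cells of the same mice it stood at 110.3, 132, 135, 67.5 and 68.9 CPM. The ranges did not overlap, and the log2 difference was -1.89 ± 0.10 (SE, adjusted p = 1.29e-17). Slc6a18, a glycine and alanine carrier, read 36.0, 15.7, 32.1, 25.9 and 34.6 CPM in S1-gated cells. Its S2-gated levels were 280.0, 347, 260.2, 289 and 242 CPM, a log2 difference of 3.44 ± 0.12 (SE, adjusted p = 1.14e-22). All 5 mice were higher in S2-gated cells. Tmem27, the partner of both, had a log2 difference of -0.16 ± 0.06 (SE, adjusted p = 0.0332). That call was lost with DESeq2, without any 1 of the 3 FMT mice, and without the mouse as a block.

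**Figure D2:**
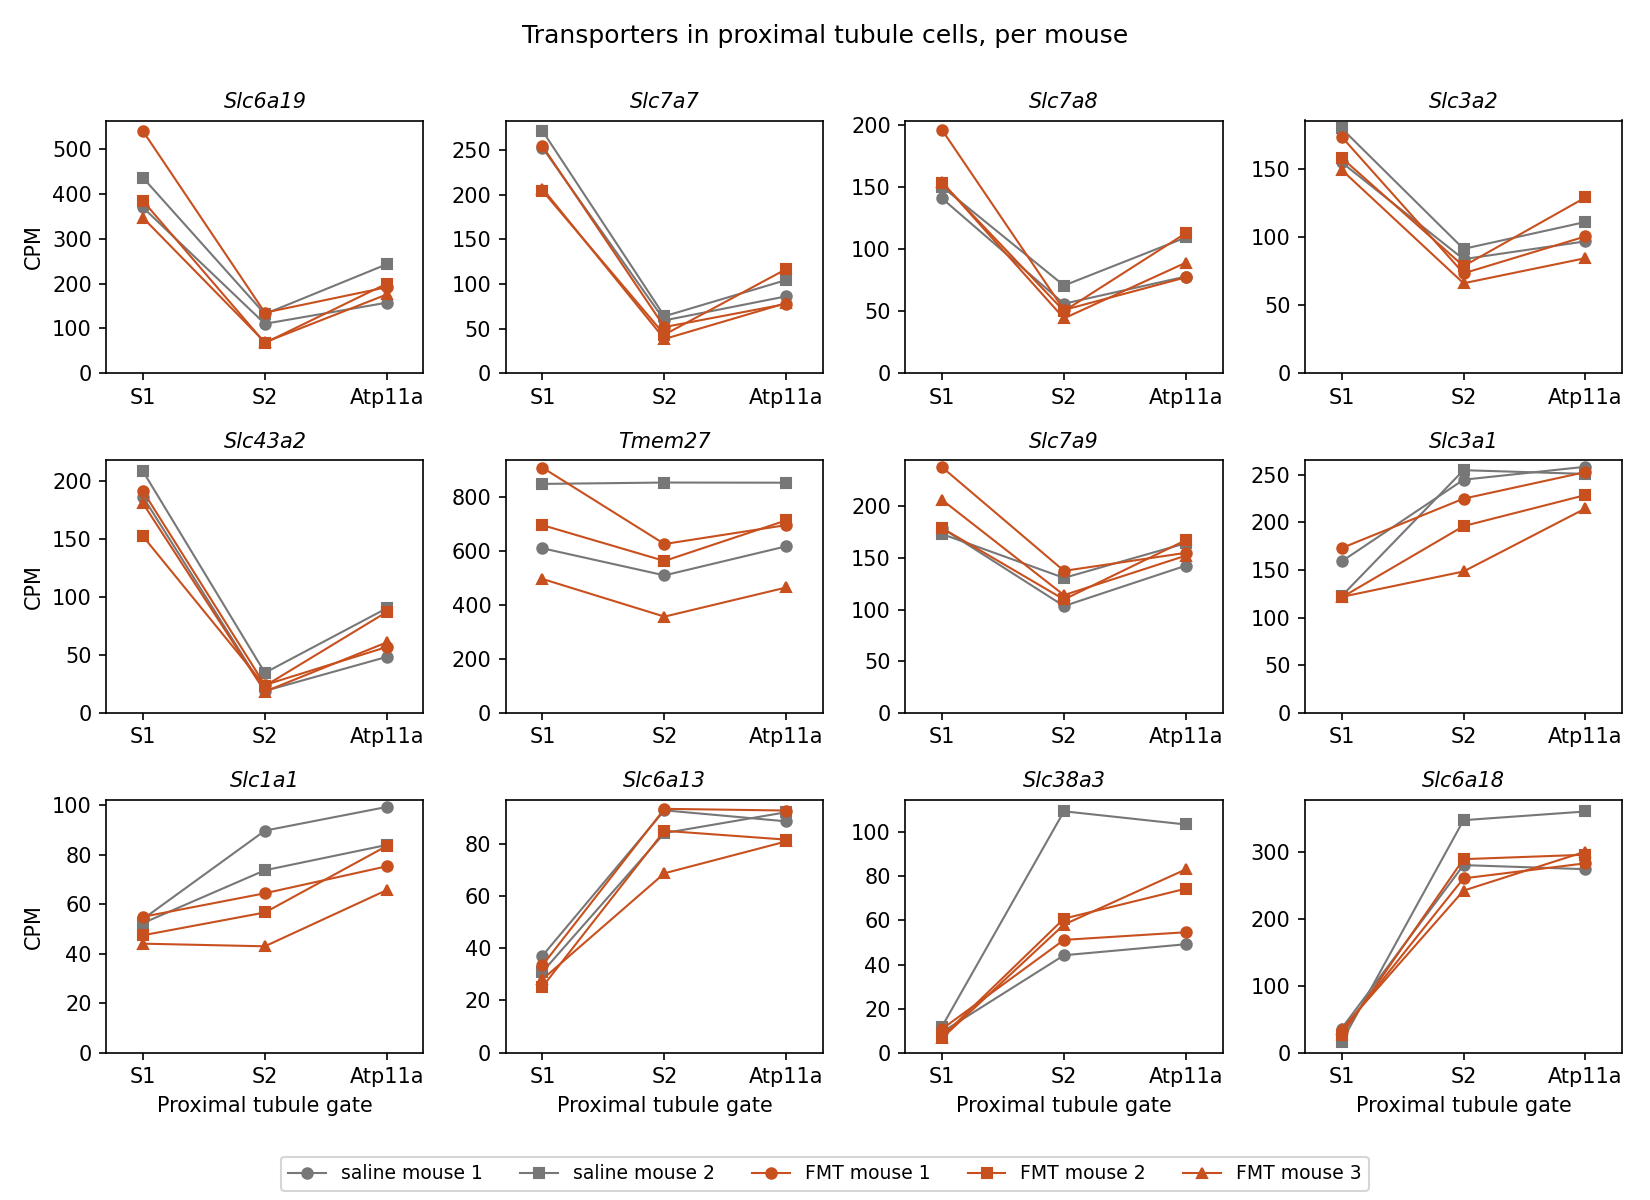
CPM of 12 members in each mouse (lines join the gates of 1 mouse; grey saline, orange FMT) for S1-gated, S2-gated and Atp11a-gated proximal tubule cells. Slc6a19, Slc7a7, Slc7a8, Slc3a2 and Slc43a2 fall from S1 to S2 in all 5 mice, Slc6a13, Slc38a3 and Slc6a18 rise in all 5, and Tmem27 is lower in 4 of 5.

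The basolateral exit route was lower in S2-gated cells. Slc7a7 (chr14:54369442-54417780), the light chain that exports lysine and arginine, fell from 252.5, 271, 254, 204 and 207 CPM to 59.1, 63.8, 51.6, 43.1 and 38.3 CPM (log2 difference -2.07 ± 0.09 SE, adjusted p = 4.41e-20). Its heavy chain Slc3a2 fell from 163 ± 13.0 to 78.6 ± 9.65 CPM (SD, n = 5), a log2 difference of -0.90. Slc7a8 (chr14:54722209-54781946), the light chain for neutral amino acids, fell from 159 ± 21.4 to 54.4 ± 10.0 CPM (SD, n = 5), a log2 difference of -1.42. Slc43a2, a basolateral uniporter of large neutral amino acids, fell from 184 ± 20.5 to 23.9 ± 6.53 CPM (SD, n = 5), a log2 difference of -2.80. The aromatic amino acid exporter Slc16a10, a non-member from a list of other carriers, also fell, from 32.5 to 8.45 CPM. The 4 members of this route were lower in S2-gated cells of every mouse. Slc7a2, a cationic amino acid carrier, fell from 7.37 ± 1.65 to 0.264 ± 0.188 CPM (SD, n = 5), where the S2-gated cells held 1, 1, 6, 0 and 2 of its UMIs.

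The luminal cystine pair moved in opposite directions. The heavy chain Slc3a1 (chr17:85028376-85064236) rose from 159, 122.5, 173, 121 and 122 CPM in S1-gated cells to 245, 255, 225, 196 and 148 CPM in S2-gated cells (log2 difference 0.76 ± 0.08 SE, adjusted p = 2.37e-10). Its light chain Slc7a9 (chr7:35448796-35466036) fell from 195 ± 27.3 to 119 ± 14.4 CPM (SD, n = 5), a log2 difference of -0.56 ± 0.07 (SE, adjusted p = 3.86e-08). Both directions held in all 5 mice. Slc1a1, the luminal glutamate and aspartate carrier, rose by 0.51 (50.5 to 65.4 CPM), with 4 of 5 mice higher.

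Other carriers that were higher in S2-gated cells act on glutamine, imino acids, GABA and serotonin. Slc38a3, the glutamine carrier of the basolateral membrane, rose from 9.28, 11.8, 10.7, 7.21 and 6.55 CPM to 44.2, 109.6, 51.2, 60.9 and 58.1 CPM (log2 difference 2.87 ± 0.12 SE, adjusted p = 1.68e-20). Saline mouse 2 was the highest of the 5. Slc6a13, a GABA and betaine carrier, rose from 31.0 to 84.8 CPM and Slc6a4, the serotonin carrier, from 5.82 to 11.9 CPM, in all 5 mice. The imino acid carriers Slc6a20a and Slc6a20b rose by 0.88 and 0.47 on the log2 scale. They are close relatives and neighbours on chromosome 9, so how counting divided reads between them is uncertain. Slc38a10 rose by 0.78. Lower in S2-gated cells were also the creatine carrier Slc6a8 (162 to 72.8 CPM), the lysosomal proton-coupled carrier Slc36a1 (83.5 to 42.5 CPM) and the lysosomal arginine sensor Slc38a9 (12.04 to 6.85 CPM). Slc6a15, Slc38a2 and Slc38a6 fell by 1.15, 0.77 and 0.66 on the log2 scale. Slc6a6, the taurine carrier, fell by 0.33 (252 to 180.4 CPM), a call that was lost without the mouse as a block.

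The carriers that were higher in S2-gated cells were also higher in Atp11a-gated cells, which carry the S2 gate genes at nearly the S2-gated level. Against S1-gated cells 9 members were higher and 8 lower of the 27 tested, where 12.4% and 10.5% of all genes were called in those directions and 22.9% in all. Slc6a18 (302.5 CPM), Slc38a3 (73.0 CPM) and Slc6a13 (87.2 CPM) rose by 3.41, 2.93 and 1.55 on the log2 scale. Slc3a1 rose by 0.83, and Slc38a10, Slc1a1, Slc6a20a, Slc6a20b and Slc6a4 rose too. Slc43a2 (-1.39), Slc7a7 (-1.32) and Slc6a19 (-1.06) fell, to 68.8, 92.7 and 194 CPM, which are above their S2-gated means. Slc7a2, Slc7a8, Slc6a8, Slc3a2 and Slc7a9 were the other members that fell. The calls of Slc7a2, Slc7a9, Slc6a4 and Slc6a20a were each lost under at least 1 alternative. The Atp11a-gated and S2-gated comparisons share the S1-gated cells as their reference.

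Genes that use amino acids, from lists of partners and pathway genes chosen with earlier results of these data known, were read in the same S2 against S1 comparison. Of 49 genes of amino acid breakdown and use, 43 were tested, 23 were higher and 12 lower in S2-gated cells, with a median log2 difference of 0.20, beside the 50.4% of all genes called in this comparison. Gatm, the first enzyme of creatine synthesis, fell from 992 to 284 CPM, whereas Gamt, the second, rose from 29.2 to 74.7 CPM. Ggt1, which splits luminal glutathione, rose by 1.58 and Hpd, of tyrosine breakdown, by 2.73 on the log2 scale. Of 19 targets of the ATF4 response, 13 were tested, 4 were higher and 5 lower, with a median of -0.02. The serine synthesis enzymes Phgdh (30.8 to 3.09 CPM), Psph (60.4 to 22.7 CPM) and Psat1 were among those lower. Of 21 measured lysosomal amino acid sensing genes, 20 were tested, 5 were higher and 7 lower, with a median of -0.24. Of 16 other measured carriers and partners, 13 were tested, 2 were higher and 4 lower, with a median near 0 (0.004), and the calls in the last 2 lists were near the share of all genes. The peptide carrier Slc15a2 rose (24.0 to 55.9 CPM) and the lysosomal cystine exporter Ctns fell (18.1 to 7.85 CPM).

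Outside the proximal tubule, low levels of the luminal carriers were set beside those of stray proximal tubule RNA. As a measure of that RNA, 14 proximal tubule genes outside the gate panels (such as Slc34a1, Miox and Kap) were read in every other class as a percentage of their proximal tubule level. Their mean percentages reached at most 5.06% in distal convoluted tubule cells, 6.65% in intercalated cells, 15.9% in B cells, 2.60% in T cells and 6.64% in monocytes and macrophages. In B cells Tmem27, Slc6a19, Slc3a1 and Slc7a9 had means of 4.28%, 4.31%, 3.94% and 4.17% of their proximal tubule level. All 4 lay inside the 1.83% to 15.9% range of the 14 genes. Slc3a2 (80.6%), Slc38a10 (67.5%), Slc43a2 (26.9%) and Slc6a6 (21.1%) lay above that range. In T cells Slc6a19 (4.15%) lay above the highest of the 14 genes, while Tmem27 (1.26%), Slc3a1 (1.18%) and Slc7a9 (2.54%) did not. Slc6a13 also lay above the 14 genes in T cells (3.50%) and in monocytes and macrophages (10.0%).

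**Figure D3:**
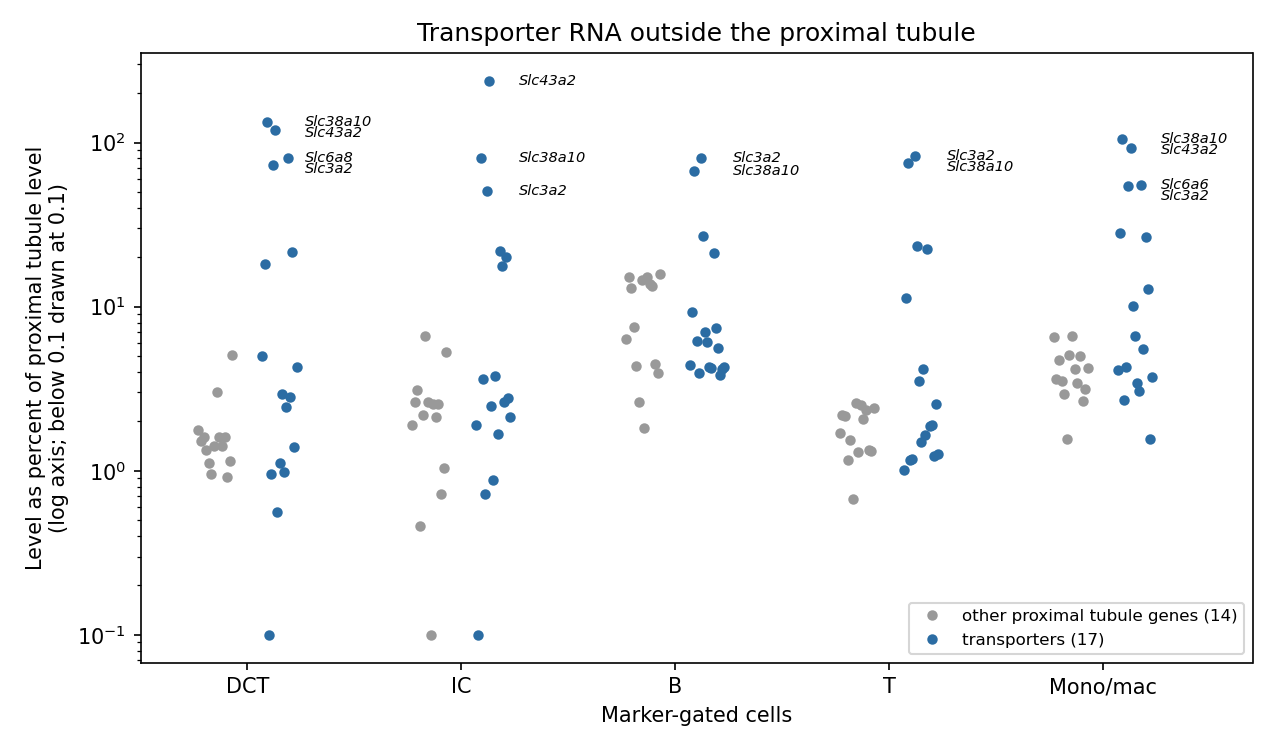
Level in 5 non-proximal cell classes as a percentage of the proximal tubule level (log axis, mean of 5 mice, values below 0.1 drawn at 0.1), for 14 other proximal tubule genes (grey) and the 17 members compared (blue). Slc43a2, Slc38a10 and Slc3a2 stand above the grey points in intercalated cells (238%, 80.0% and 50.7%), as do Slc6a6, Slc7a8 and Slc6a8 (21.8%, 20.2% and 17.7%), while the other 11 members there do not.

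Slc1a5 and Slc38a2 were higher in distal convoluted tubule cells than in the 3 proximal tubule gates, with no overlap between mice. In the distal cells Slc1a5, a neutral amino acid exchanger, stood at 97.2 and 144 CPM in saline mice and 148, 104 and 95.6 CPM in FMT mice. In the 3 proximal tubule gates its means were 1.68 to 3.18 CPM, and no mouse of those gates reached the distal levels. Slc43a2 (96.2 ± 16.9 CPM), Slc6a8 (84.0 ± 11.1 CPM) and Slc3a2 (80.8 ± 33.3 CPM) followed (SD, n = 5). Slc38a2 (58.0 CPM), Slc38a10 (44.5 CPM) and Slc7a8 (20.2 CPM) were also among the highest members there. Intercalated cells were led by Slc43a2, at 145 and 158 CPM in saline mice and 278, 296 and 69.8 CPM in FMT mice. These rest on 13 to 50 UMIs per mouse, and the next members, Slc3a2, Slc6a6, Slc1a5, Slc38a10, Slc38a2, Slc7a8 and Slc6a8, had 57.0 to 18.6 CPM. Thick ascending limb cells numbered only 9 to 28 per mouse. Slc43a2 (146 CPM), Slc1a5 (126 CPM), Slc3a2 (105 CPM), Slc38a10 (60.3 CPM), Slc1a1 (49.1 CPM), Slc6a8 (47.0 CPM), Slc7a8 (32.8 CPM) and Slc38a2 (25.5 CPM) were highest there.

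Plasma cells had the highest Slc3a2 level of any class, at 539 and 815 CPM in saline mice and 1127, 585 and 621 CPM in FMT mice, above every mouse of every other class (the highest elsewhere was 199.6 CPM, in thick ascending limb cells of FMT mouse 3). They were 14 to 19 cells per mouse, with 46 to 118 Slc3a2 UMIs. Slc7a5, the large neutral amino acid exchanger that pairs with Slc3a2, was also highest there, at 44.99 ± 16.6 CPM (SD, n = 5) on 3 to 7 UMIs per mouse, and T cells came next at 12.6 ± 6.09 CPM. Slc1a5 (136 CPM), Slc38a2 (103 CPM), Slc38a10 (69.0 CPM), Slc7a6os (27.8 CPM), Slc38a1 (22.0 CPM) and Slc7a1 (21.4 CPM) were the other leading members of plasma cells. With the second panel unlimited, 18 to 33 plasma cells per mouse had 566 to 841 CPM of Slc3a2.

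B cells shared Slc3a2 (87.0 ± 20.4 CPM), Slc1a5 (82.3 ± 12.5 CPM) and Slc38a2 (82.0 ± 18.03 CPM) with T cells (89.6 ± 22.3, 75.2 ± 9.76 and 68.3 ± 19.6 CPM; SD, n = 5), and the mice of the 2 classes overlapped for all 3. The glutamine carrier Slc38a1 was highest in B cells, at 79.95, 68.8, 72.1, 72.3 and 62.8 CPM, and the monocyte and macrophage class, next in order, reached 60.8 CPM at most. T cells had 43.0 ± 15.3 CPM of Slc38a1 (SD, n = 5), and only FMT mouse 3, at 68.6 CPM, reached the B cell range. Slc7a5 had 2.66 CPM in B cells and 0.165 CPM in S1-gated cells.

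Among the classes, Slc7a11, the cystine and glutamate exchanger, was highest in myeloid cells. Neutrophil-gated cells had 961 and 552 CPM in saline mice and 1501, 276 and 1219 CPM in FMT mice, on 51, 23, 29, 5 and 115 UMIs from 7 to 36 cells. Monocytes and macrophages had 79.8, 35.3, 54.5, 7.93 and 33.5 CPM, and no other class had a mean above 1.07 CPM. The other 7 neutrophil panel genes, S100a8 and S100a9 among them, summed to 5312, 373.5, 136, 169 and 228 CPM in the monocyte class, with the highest sum in the mouse with the highest Slc7a11, against 190800 to 299400 CPM in neutrophils, and their part was not tested. In FMT mouse 1, 18 of the 29 neutrophil UMIs lay in 1 cell. With the second panel unlimited, 38 to 94 neutrophils per mouse had 278 to 876 CPM. Slc6a6 was the leading member of monocytes and macrophages (115 ± 35.3 CPM, SD, n = 5), followed there by Slc43a2 (74.4 CPM), Slc3a2 (57.8 CPM) and Slc38a1 (43.8 CPM). Neutrophils had 124 ± 67.1 CPM of Slc6a6 (SD, n = 5) on 3 to 5 UMIs per mouse. In order of its levels, S1-gated (252 CPM) and Atp11a-gated cells (248 CPM) overlapped, S2-gated cells (180.4 CPM) overlapped neutrophils, and monocytes lay above intercalated (48.3 CPM), T (47.3 CPM) and B cells (44.1 CPM), which overlapped each other.

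FMT and saline mice were then compared within each class. No member was called in any of the 9 classes tested or over the whole library (edgeR quasi-likelihood test, adjusted over all genes), and DESeq2 also called 0 members in each. The thick ascending limb test compared only 1 saline mouse with 2 FMT mice, so its saline mouse is assumed to vary like the FMT mice. Over all genes, edgeR called 0.251% in S1-gated, 0.104% in S2-gated, 0.13% in Atp11a-gated, 0.193% in distal convoluted tubule and 0.943% in B cells. In thick ascending limb, intercalated, T and monocyte and macrophage cells and in the whole library 0.0% were called. At an unadjusted p under 0.05, 12 of the 144 member and class pairs passed, and 8 of these were in S2-gated cells (of 29 tested, against 13.6% of all genes). The others were 1 member each in Atp11a-gated (7.53% of all genes), B (10.2%), T (5.74%) and monocyte and macrophage cells (5.69%). None passed in S1-gated (6.81%), distal convoluted tubule (4.75%), intercalated (2.86%) or thick ascending limb cells (5.01%). On simulated data of the S2-gated comparison, 65% of genes changed 2-fold and 96% changed 4-fold were recovered. For distal convoluted tubule cells these were 52% and 93%, and for T cells 33% and 90%. Unchanged genes that were falsely called in these simulations numbered 15 for S2-gated, 8 for distal convoluted tubule and 22 for T cells. The genes simulated numbered 10608, 8279 and 8826. More genes were changed in these simulations than the fits called in the real data, which loosens the adjusted threshold. Recovery in the real data can therefore be lower, and changes under 2-fold were not simulated for these comparisons. An exact permutation test of 2 against 3 mice cannot go below 0.1.

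In S2-gated cells 22 of the 29 members tested were lower in FMT mice, with a median log2 difference of -0.28 against -0.01 (-0.008) over all genes. For 9 members the groups did not overlap, 8 of them lower, where 31.7% of all genes did not overlap and 17.0% were lower without overlap. Slc1a1 stood at 89.6 and 73.7 CPM in saline mice and at 64.4, 56.6 and 42.9 CPM in FMT mice, with no overlap (log2 difference -0.56 ± 0.19 SE, adjusted p = 0.266). Slc7a7 stood at 59.1 and 63.8 against 51.6, 43.1 and 38.3 CPM (-0.44 ± 0.15 SE, adjusted p = 0.281). Slc3a1 stood at 245 and 255 against 225, 196 and 148 CPM (-0.38 ± 0.18 SE, adjusted p = 0.399). Slc7a8 (-0.36) and Slc6a8 (-0.35) were the next largest of those without overlap and a mean of at least 30 CPM, with adjusted p of 0.315 and 0.351. FMT mouse 3 was the lowest for each of these 5 genes. Slc38a2, a carrier that cells raise when short of amino acids, stood at 11.2 and 6.32 against 4.60, 4.82 and 3.19 CPM, on 13 to 73 UMIs per mouse (-1.05 ± 0.30 SE, adjusted p = 0.225). It was called only without the low count filter (adjusted p = 0.0197), and without saline mouse 1 its difference was -0.47. Over its alternatives the adjusted p ran from 0.0197 to 0.578. Slc6a4 had the opposite sign, at 9.12 and 9.34 against 15.8, 13.5 and 11.5 CPM (0.60 ± 0.21 SE, adjusted p = 0.281).

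**Figure D4:**
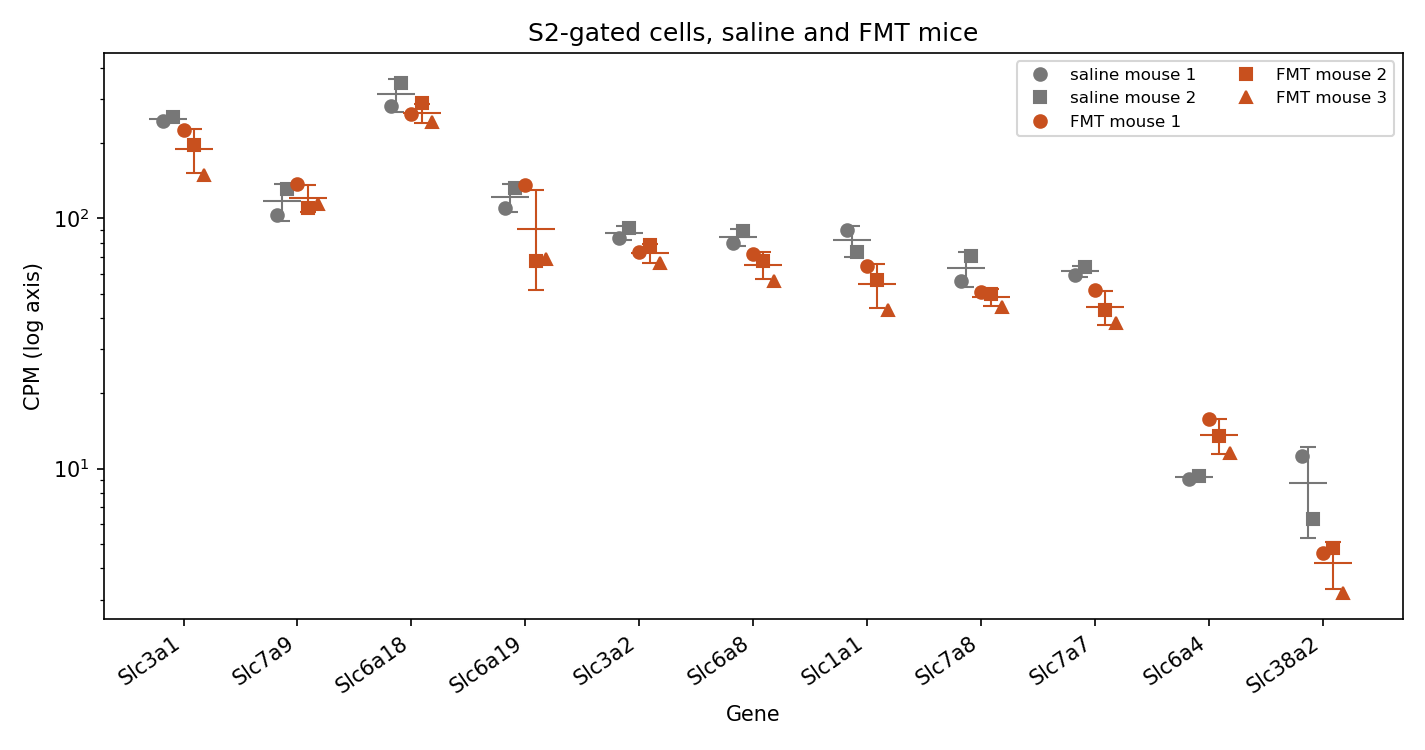
CPM (log axis) in S2-gated cells of 11 members in each saline (grey) and FMT (orange) mouse, with group means and SD bars. The saline points lie above the FMT points for Slc3a1, Slc3a2, Slc6a8, Slc1a1, Slc7a8, Slc7a7 and Slc38a2 and below them for Slc6a4, while Slc7a9, Slc6a18 and Slc6a19 overlap; no member passed the adjusted test.

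Of 27 members tested in S1-gated cells, 12 were higher and 15 lower in FMT mice, with a median of -0.06 against 0.00 (0.004) over all genes. Slc7a9 (179 and 173 against 238, 179 and 206 CPM; 0.20 ± 0.17 SE, adjusted p = 0.921) and Slc7a8 (141 and 150.4 against 196, 153.5 and 154 CPM; 0.17 ± 0.16 SE, adjusted p = 0.94) were higher without overlap, with FMT mouse 2 just above the saline mice. In all 5 members did not overlap, 3 of them lower, where 22.4% of all genes did not overlap and 8.82% were lower without overlap. Slc38a2 had the same sign as in S2-gated cells, at 13.3 and 13.4 against 12.7, 8.47 and 7.02 CPM (-0.48 ± 0.26 SE, adjusted p = 0.821), and Slc38a6 (-0.31) and Slc6a15 (-0.37) were the other lower ones. Slc6a19 (0.03) and Tmem27 (-0.10) overlapped between groups. The difference between the FMT effects in S1-gated and S2-gated cells, tested with an interaction term in a fit blocked by mouse, passed for 0 of 29 members (smallest adjusted p = 0.207, Slc7a8). In Atp11a-gated cells the members without overlap at 30 CPM or more were Slc1a1 (-0.29, adjusted p = 0.749), Slc6a6 (-0.17, adjusted p = 0.858) and Slc38a10 (0.24, adjusted p = 0.824).

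Slc6a6 differed between the groups without overlap in 2 immune classes, and neither difference passed the test. Monocytes and macrophages had 156 and 151.5 CPM in saline mice and 85.7, 95.2 and 88.2 CPM in FMT mice, with no overlap (-0.87 ± 0.24 SE, adjusted p = 0.415). T cells had 58.4 and 58.01 against 38.3, 41.1 and 40.5 CPM (-0.50 ± 0.18 SE, adjusted p = 0.778), and the difference was -0.16 with the second panel unlimited. In B cells the groups overlapped, at 44.4 and 46.4 against 45.3, 50.5 and 34.1 CPM, as they did in neutrophils and plasma cells. The summed neutrophil panel given above was also higher in the monocyte class of both saline mice, as was S100a8 (2754 and 242.7 against 15.6, 13.2 and 130.8 CPM). S100a9 (2501 and 31.1 against 1.95, 2.64 and 42.6 CPM) and G0s2 (22.7 and 58.1 against 50.6, 60.8 and 21.3 CPM) overlapped between the groups. Csf3r did not go that way (23.6 and 37.4 against 66.2, 89.9 and 33.5 CPM). Retnlg was low but higher in saline mice (10.0 and 4.15 against 0, 2.64 and 0 CPM). Cxcr2 was at 0 in 3 mice and Mmp9 in 4. The part of these genes in the Slc6a6 difference was not tested. The monocyte class was uneven in size (665 and 101 cells from saline mice, and 135, 118 and 68 from FMT mice), and in saline mouse 2, 24 of the 73 Slc6a6 UMIs came from 1 cell. Over the alternatives the monocyte difference ran from -0.95 to -0.52, the latter with the second panel unlimited. Slc3a2 was higher in monocytes of FMT mice without overlap, at 47.97 and 43.6 against 70.1, 63.4 and 63.9 CPM (0.44 ± 0.28 SE, adjusted p = 0.993).

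**Figure D5:**
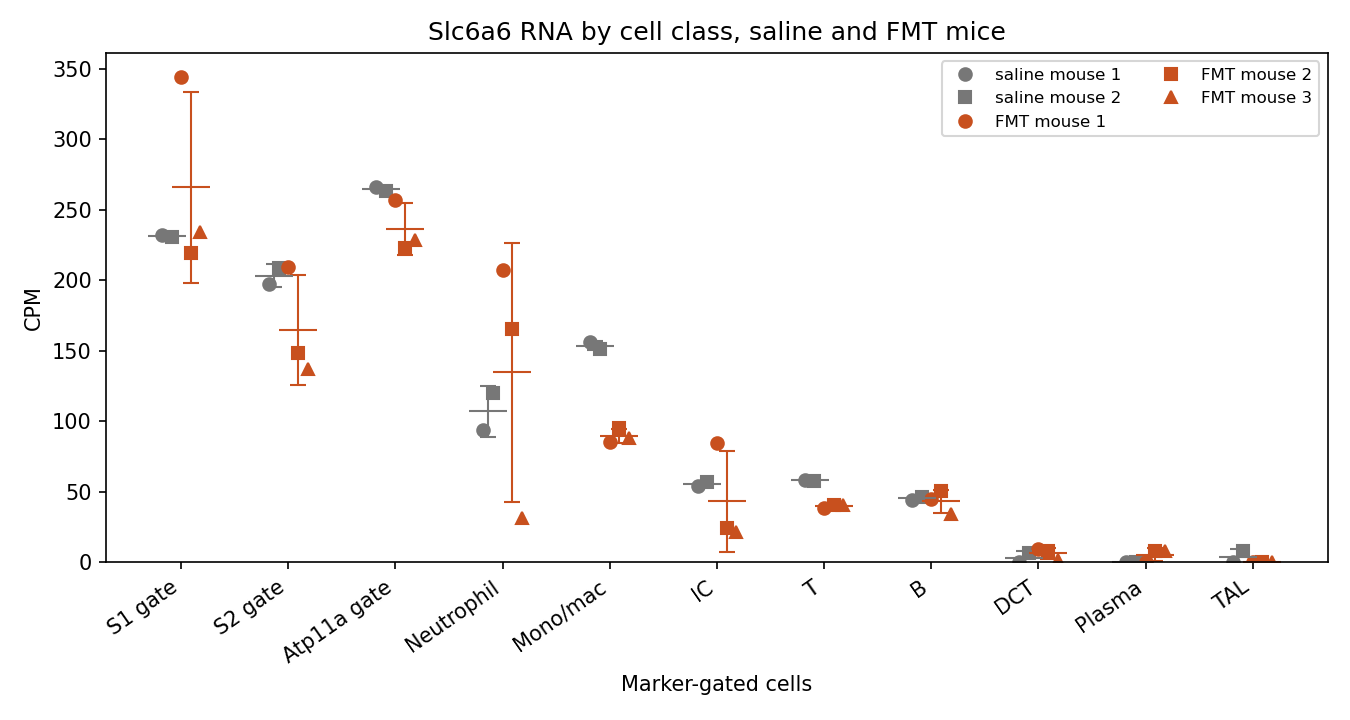
CPM of Slc6a6 in each saline (grey) and FMT (orange) mouse in 11 marker-gated classes, with group means and SD bars. The groups separate in monocytes and macrophages (85.7 to 95.2 CPM in FMT mice, 151.5 and 156 CPM in saline mice) and T cells and lie close together in Atp11a-gated cells, and they overlap in S1-gated, S2-gated, neutrophil, intercalated and B cells; no difference passed the adjusted test.

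In B cells the member with the smallest p was Slc7a9, at 2.42 and 3.999 against 8.18, 13.0 and 3.59 CPM on 2 to 19 UMIs per mouse (1.45 ± 0.60 SE, adjusted p = 0.392). Beside it, of 14 stray proximal tubule genes 12 were tested in B cells, 11 were higher in FMT mice, 5 of them called, with a median of 0.86. Their median level was 6.87% and 7.33% of the proximal tubule level for saline mice 1 and 2, then 9.70%, 14.7% and 12.8% for FMT mice 1 to 3, and their part in the Slc7a9 values was not tested. Of the related lists, Sesn2, an amino acid sensor of mTORC1 and an ATF4 target, rose in S1-gated cells of FMT mice (33.1 and 38.2 against 66.6, 86.8 and 88.0 CPM; 1.13 ± 0.19 SE, adjusted p = 0.014). In B cells Sesn1 fell (176 and 135 against 66.2, 62.7 and 73.6 CPM; -1.26 ± 0.18 SE, adjusted p = 0.00702), and Cth and Pipox rose. Cth and Pipox stood at 125.5 and 327 CPM in S1-gated cells, stray proximal tubule RNA moved with both in B cells, and its part was not tested. No other gene of the 4 related lists was called in any class.

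Slc7a12 and Slc7a13, carriers of the late proximal tubule that differ between the sexes in mouse kidney, were nearly absent from the gated cells. Slc7a13, the male-high gene, had 14 UMIs in all 5 libraries, and Slc7a12, the female-high gene, had 339. Xist stood at 909 to 1397 CPM over the whole library and the Y-linked genes Ddx3y, Eif2s3y and Kdm5d at 0 UMIs in every mouse. Uty, also Y-linked, stood at 0.0227 CPM in FMT mouse 1 and at 0 in every other mouse. Slc7a12 stood at 2.46 and 2.47 CPM in Atp11a-gated cells of saline mice and at 9.73, 11.9 and 10.6 CPM in FMT mice, on 3, 3, 34, 25 and 9 UMIs (2.07 ± 0.50 SE, adjusted p = 0.218). Those UMIs came from 1 to 6 cells per mouse, 17 of the 34 of FMT mouse 1 from 1 cell. The gene was called only without the low count filter (2.08, adjusted p = 0.034), and with the second panel unlimited the difference was 0.01. Of its UMIs 73.2% lay in cells outside every class, 33 and 50 in the saline mice, then 77, 39 and 49 in the FMT mice.

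Over the whole library 47 members were tested, 0 were called and 11 had an unadjusted p under 0.05, against 14.0% of all genes. Cell make-up also differed, and its part in these values was not tested. Saline mice had 32.8% and 30.9% of kept cells in the 3 proximal tubule gates, FMT mice 48.1%, 45.6% and 39.6%. B and T cells together made up 15.4% and 20.5% of kept cells against 16.5%, 17.35% and 10.7%, with overlap between the groups. Monocytes and macrophages made up 12.7% and 3.09% against 2.14%, 2.41% and 2.38%. Slc7a9 was at 75.2 and 80.2 against 122, 94.4 and 90.5 CPM (0.47 ± 0.17 SE, adjusted p = 0.315), and the immune carrier Slc38a1 at 17.3 and 16.2 against 9.38, 12.3 and 10.2 CPM (-0.58 ± 0.16 SE, adjusted p = 0.267). Within the classes Slc7a9 differed by 0.20, 0.07 and 0.04 in the S1-gated, S2-gated and Atp11a-gated cells, and Slc38a1 by -0.13 in B cells, 0.01 in T cells and -0.08 in monocytes and macrophages. The letter codes of the sample titles differ between the groups, so a batch that follows them cannot be told apart from the transplant.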

How the data were processed

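Droplet single-cell RNA counts of kidney cells from 2 saline and 3 FMT mice were used. The authors deposited raw UMI counts per gene and barcode. Cell Ranger 2.1.1 and mm10 are given by the submitters' processing notes. Version 4.0.0 stands in the matrices, per the file headers, and which one applies is unclear. The extraction text in the labels names bulk RNA kits, although the matrices hold single cells. Coordinates came from GENCODE M21 (GRCm38) by Ensembl ID, and promoters from RefSeq by symbol or synonym.

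A barcode was kept as a cell when it had 200 or more genes and less than 50% mitochondrial UMIs. A cell joined a class with at least 1 UMI of its gating gene, at least 3 panel genes, and a second-best panel share at most 0.5 of the best, which also served as the doublet filter (no caller was run). Proximal tubule cells went to the gate whose 2 genes were highest relative to their mean. The rule named S1, S2, distal convoluted tubule, intercalated, B, plasma, T and myeloid gates, and the Atp11a, thick limb and neutrophil gates were added. UMIs were summed per mouse and class, since cells are not replicates. Classes with at least 20 cells per library were tested with edgeR 4.0.16 in R 4.3.3 (quasi-likelihood F test, TMM, edgeR's low count filter, Benjamini-Hochberg over all genes at 0.05), and with DESeq2 1.42.0 as an alternative. Plasma cells and neutrophils had too few cells for a test. The p-values of FMT against saline measure the spread between these 5 libraries, or 3 of them for thick ascending limb cells. Those of the proximal tubule and interaction fits, blocked by mouse, measure how much the differences between gates or classes vary from mouse to mouse. FMT differences are log2 FMT over saline, and proximal tubule differences are log2 over S1-gated cells. The segment fit was tested on simulated data, where 80% of genes changed 1.5-fold and 91% changed 2-fold were recovered. There 19 unchanged genes were falsely called, of 10437 genes simulated.

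Library pairs shared 3 to 12 barcodes and differed by a chi-square per gene of 67.2 or more, and each of the 5 was taken as its own replicate. Of UMIs in kept cells 29.2% lay outside the classes. Members, gates and lists were chosen with earlier results of these data known. Named genes are members called in a test, the 8 highest in each class, up to 5 per class without overlap at a mean of at least 30 CPM, and a preset list of 13 members. Results on some genes are not reported here. Other genes, and Slc6a4, Slc38a1, Slc38a6 and Slc6a15 in the FMT comparison, were named after their values were seen, as were the promoters. Figures used Python 3.11.15 and matplotlib 3.10.9.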

Additional observations from a re-analysis of the deposited data

Results flagged for a closer look

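Slc7a8 differed with opposite signs in neighbouring gates: in S1-gated cells it was 0.17 higher in FMT mice on the log2 scale (higher in 3 of 3), and in S2-gated cells 0.36 lower (lower in 3 of 3). The difference between these effects, tested with an interaction term chosen after the values were seen, was -0.53 ± 0.13 (SE) with an adjusted p of 0.207 over 11001 genes, so it did not pass. Slc3a2 was 0.44 higher in monocytes and macrophages of FMT mice and 0.25 lower in their S2-gated cells, again without overlap in either class. Its interaction was 0.57 ± 0.35 (SE, S2-gated against monocytes) with an adjusted p of 0.828.

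For 3 members with at least 100 UMIs most molecules lay in cells outside every class, where 29.2% of all UMIs of kept cells lay. These were Slc7a12 (73.2%), Slc7a11 (63.8%) and the glycine carrier Slc6a9 (58.05%). The cells outside the classes held 256 and 83 Slc7a11 UMIs in the saline mice, and 142, 69 and 298 in the FMT mice. Monocyte and neutrophil panels share Lyz2, and with the second panel unlimited neutrophils numbered 38 to 94 per mouse instead of 7 to 36.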

How the results depend on the processing

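The segment calls held best. Between 22 and 29 members were called in S2-gated against S1-gated cells over 11 alternatives (23 to 25 without 1 mouse, 24 as reported), and between 14 and 21 in Atp11a-gated cells over 10 (14 to 18 without 1 mouse, 17 as reported). Of 434 single-gene values under alternatives, 420 kept direction and call, 14 lost the call and 0 changed sign. Assigning segments by most UMIs left too few Atp11a-gated cells for that comparison.

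For FMT against saline, 0 members were called in each class without any 1 mouse. Without a filter on low counts 1 member was called in each of 3 classes: 1 in S2-gated cells (Slc38a2), 1 in Atp11a-gated cells (Slc7a12) and 1 in monocytes and macrophages (Slc6a18, not tested otherwise). No other alternative called a member. The whole library had 0 calls over all genes with edgeR and 419 with DESeq2, S2-gated cells 11 and 64, and leaving out 1 mouse gave 8 to 17 in S2-gated cells and 3 to 57 in S1-gated cells (26 as reported).

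The replicate numbers 1 and 2 occur in both groups, but nothing says that they pair the mice. Deviations of same-numbered mice from their group means correlated at -0.29 to 0.02 over 3 classes. The deviations of the 2 saline mice mirror each other, so these correlations cannot decide whether the numbers pair the mice. With the replicate block 0 members were called in every class it could be fitted in, while over all genes 86 against 26 were called in S1-gated, 33 against 11 in S2-gated, 57 against 11 in Atp11a-gated and 53 against 0 in T cells. In thick ascending limb cells, with 3 libraries, neither the block nor leaving out a mouse could be fitted.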

Other observations

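The following members had few UMIs and were picked after their values were seen. Slc1a3, a glutamate carrier known from glia, stood at 10.4 and 5.83 CPM in distal convoluted tubule cells of the saline mice and at 4.83, 12.7 and 7.21 CPM in those of the FMT mice, on 4 to 12 UMIs per mouse, and at 8.25 CPM in thick ascending limb cells. S1-gated and S2-gated cells had 0.04 and 0.08 CPM. Slc7a4, an orphan of the cationic amino acid carrier family, stood at 8.32 ± 2.17 CPM (SD, n = 5) in distal convoluted tubule cells, at 14.4 CPM in thick ascending limb and 6.68 CPM in intercalated cells (4 and 6 UMIs), and at 0.51 and 0.53 CPM in S1-gated and S2-gated cells. Slc36a3os had 21.8 ± 9.87 CPM (SD, n = 5) in monocytes and macrophages, 16.1 CPM in neutrophils, 10.5 CPM in B cells, 9.60 CPM in T cells and 0.09 CPM in S1-gated cells.

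Slc6a12, the betaine and GABA carrier, had 65 UMIs in kept cells, most of them in monocytes and macrophages. It stood there at 11.3 and 10.4 CPM in saline mice and 5.84, 5.29 and 0 CPM in FMT mice, on 26, 5, 3, 2 and 0 UMIs. Its whole-library levels were 1.54 and 0.706 CPM in saline mice and 0.182, 0.183 and 0 CPM in FMT mice (log2 difference -2.87 ± 0.71 SE, adjusted p = 0.25 by edgeR). Saline mice had 12.7% and 3.09% of kept cells in the monocyte and macrophage class, FMT mice 2.14%, 2.41% and 2.38%, and their part in the whole-library value was not tested. Slc6a18 had 13 and 27 UMIs in monocytes of the saline mice and 3, 0 and 2 in the FMT mice, with 56.0 CPM in saline mouse 2 alone against 0 to 6.08 CPM in the other 4.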
